A study of Homo sapiens with 24 samples.

Results

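The comparison described here set BXPC3 cells that received SR4 and lonidamine together for 24 h against BXPC3 cells that received vehicle for 24 h. BXPC3 is a human pancreatic ductal adenocarcinoma line. Its libraries were chosen by their labels alone, 3 combination and 3 vehicle libraries, which are 6 of the 24 libraries of the study. The other libraries were 3 of BXPC3 with SR4 alone at 5 uM, 3 of BXPC3 with lonidamine alone at 300 uM and the same 4 groups of PANC1, a second pancreatic cancer line. Doses within the combination are not stated separately, and all cells were grown in low-glucose medium with serum. All values are for 12920 of the 25168 genes in the table, those with enough counts to be tested. The question was what both compounds did together to the messenger RNA of these cells.

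SR4 is known as a mitochondrial uncoupler, an agent that lets protons leak across the inner mitochondrial membrane and so separates respiration from ATP production. Lonidamine is known as an inhibitor of the mitochondrial pyruvate carrier, of the export of lactate by monocarboxylate transporters and of respiratory complex II. Cells that run short of energy, amino acids, iron or sterols are known to answer through separate sets of genes. Among these sets are the integrated stress response through ATF4, the sterol response through SREBP2 and the antioxidant response through NRF2. Another is the hypoxia response through HIF, which a lack of iron can also raise. These sets, and those for growth and division, order the results.

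Library totals were 9366776, 9250099 and 9142433 counts with the combination, against 11470973, 10485712 and 11160686 counts with vehicle. A count of 0 allows up to 0.329 to 0.337 CPM (counts per 1e6, scaled by TMM) with the combination and 0.260 to 0.279 CPM with vehicle, at 3 counts. The 20 genes with most counts took 7.80% to 7.88% of a combination library and 6.21% to 6.27% of a vehicle library. Duct markers were present in both groups, with summed levels of 3614 to 3648 CPM with the combination and 6120.3 to 6633 CPM with vehicle, and 1 of the 10 was at 0 in all 6 libraries. Markers of acinar and islet cells summed to at most 2.12 CPM with the combination and 1.56 CPM with vehicle. SMAD4, a gene that BXPC3 is known to have lost, was at 0 in all 6 libraries. Origin of the replicates, such as separate cultures, is not given, so the p-values speak of the spread between these libraries and that spread may be technical. Floors and counting intervals hold counting error alone. Each log2 change carries its SE and each mean level its SD, over 3 libraries a group.

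Most of the transcriptome moved. By the quasi-likelihood test of edgeR, adjusted after Benjamini and Hochberg at 0.05, 5127 genes rose (39.7% of those tested) and 5102 fell (39.5%). Of these, 1645 rose (12.7%) and 1948 fell (15.1%) by at least 2-fold, a log2 change of 1. At least 4-fold rises numbered 383 and falls 781. The 3 combination libraries lay entirely above the 3 vehicle libraries for 5168 genes and entirely below for 5148. The median change over all genes tested was -0.00095 log2, with the middle 50% between -0.60 and 0.57. These figures are the background beside which every list below is given. The lists were chosen with earlier results of these data known, so their shares are descriptions and not tests. An exact permutation of 3 against 3 libraries cannot go below a p of 0.1. Levels are relative to each library's total, so in these bulk samples fewer cells of a type and less RNA per cell cannot be told apart.

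Across the table the change went with gene length. The median log2 change was -0.16 in the shortest 25% of genes, with a median length of 2.29 kb, and 0.17 in the longest 25%, with a median of 9.43 kb. MALAT1, an abundant nuclear RNA, had 1147, 1269.8 and 1450.3 CPM in the combination libraries, against 345, 297 and 278 CPM in the vehicle libraries. NEAT1, another, had 315, 364 and 480.0 CPM in the combination libraries, against 60.4, 93.8 and 67.5 CPM in the vehicle libraries. Every combination library was above every vehicle library at both, which rose by 2.07 ± 0.19 and 2.39 ± 0.27 log2. They belong to a list of long noncoding RNAs of which all 7 tested rose, and which also holds NORAD, known to be mainly cytoplasmic. The part of length and of nuclear RNA in the results below was not tested.

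**Figure D1:**
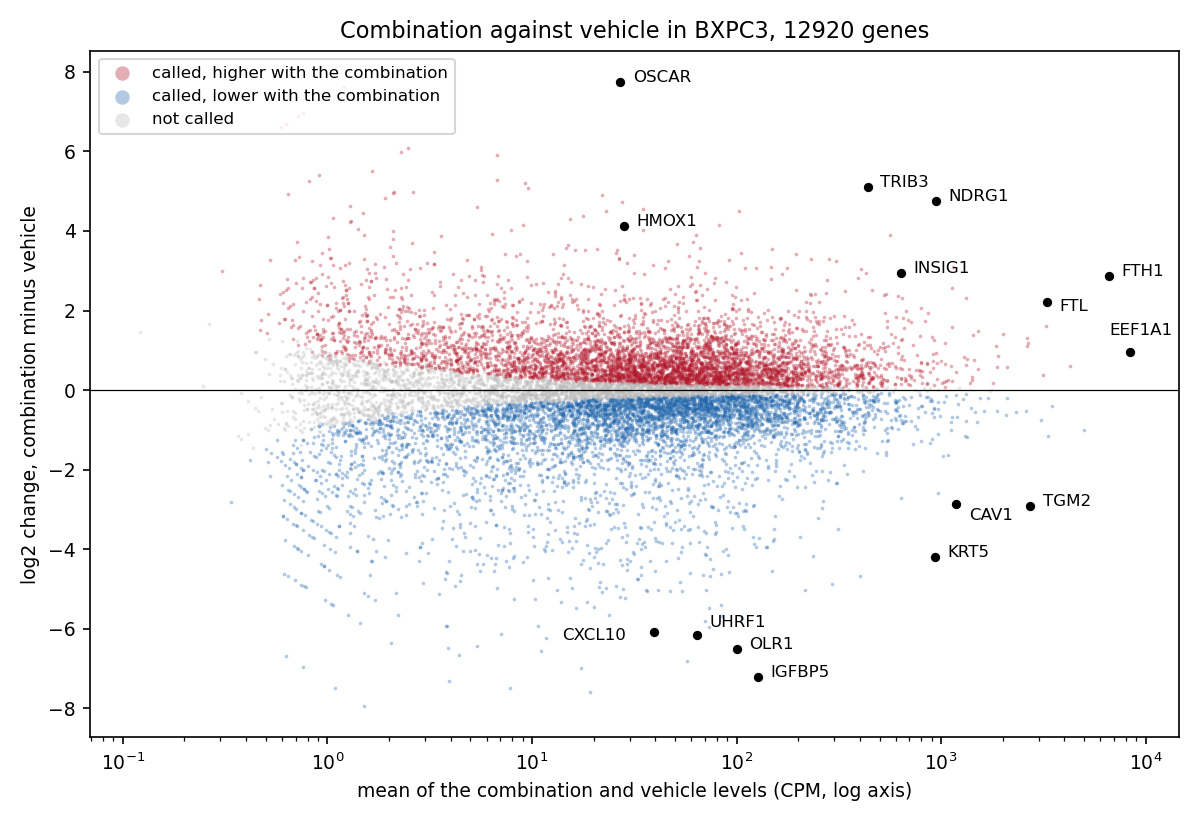
Log2 change (combination minus vehicle, y axis) against the mean level of both groups in CPM (x axis, log scale), with 1 point for each of 12920 genes in BXPC3. Red points are the 5127 genes called higher with the combination, blue points the 5102 called lower and grey points those not called, and black points mark genes named in the text.

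Among genes with at least 20 CPM in the higher group, OSCAR, which encodes a collagen receptor of the immunoglobulin family at chr19:54094668-54102692, rose most. It had 53.5, 49.02 and 58.9 CPM in the combination libraries, against 0.348, 0.0932 and 0.266 CPM in the vehicle libraries. The vehicle values rest on 8 counts in all, so the size of the rise of 7.74 ± 0.21 log2 is uncertain. Lack of overlap between the groups was a condition for naming the largest rises and falls. TRIB3, a pseudokinase induced by ATF4 and CHOP, had 832, 841 and 877 CPM in the combination libraries, against 25.3, 27.3 and 22.1 CPM in the vehicle libraries. It rose by 5.09 ± 0.051 log2. The next largest rises were those of ALDH1L2, a mitochondrial folate enzyme (4.91 log2), NDRG1, a gene of the hypoxia and iron response (4.76), and ADM2, a peptide hormone gene (4.73). CLGN, a chaperone of the endoplasmic reticulum (ER), rose by 4.56 ± 0.12 log2 and DDIT3, which encodes CHOP, by 4.496 ± 0.079. MFAP3L, SLC2A3, which encodes the glucose transporter GLUT3, and IL11, a cytokine of the IL-6 family, closed the 10, with rises of 4.49, 4.39 and 4.31 log2.

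Among the largest falls was that of IGFBP5, which encodes a carrier of insulin-like growth factors at chr2:216672105-216695525. It had 2.53, 1.11 and 1.46 CPM in the combination libraries, against 251, 242 and 268 CPM in the vehicle libraries. The transcript was nearly lost from all 3 combination libraries, and IGFBP5 fell by 7.21 ± 0.12 log2. OLR1, a scavenger receptor for oxidised lipoprotein, had 2.64, 1.78 and 2.13 CPM in the combination libraries, against 199, 203 and 194 CPM in the vehicle libraries, and fell by 6.496 ± 0.089 log2. UHRF1, which maintains DNA methylation through replication, fell by 6.16 ± 0.097 log2, MCM10, a replication initiation factor, fell by 6.04 ± 0.13 and CXCL10, an interferon-induced chemokine, fell by 6.07 ± 0.13. ZNF488 fell by 6.98, FAM111B fell by 6.81, TENM2 fell by 6.55 and SHROOM2 fell by 6.23 log2. ZNF488 had 7 combination counts, TENM2 6 and SHROOM2 8, so these folds are uncertain in size. TENM2 stood at -8.33 log2 without combination replicate 1 and ZNF488 at -7.59 without combination replicate 3.

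In absolute terms the ferritin genes gained most of the library. FTH1, the ferritin heavy chain at chr11:61959718-61967660, had 11814, 11485 and 11533 CPM in the combination libraries, against 1656, 1582 and 1511 CPM in the vehicle libraries. FTL, the light chain, had 5508, 5426 and 5330.3 CPM in the combination libraries, against 1230.3, 1158 and 1140.0 CPM in the vehicle libraries. The combination libraries held several times the vehicle level of both, and FTH1 alone gained more CPM than any other gene. EEF1A1, the elongation factor that brings aminoacyl-tRNA to the ribosome, gained next, with 11078 ± 165 CPM with the combination and 5674 ± 75.2 CPM with vehicle, and SCD, the stearoyl desaturase, and TPT1, a growth-related protein known to be controlled in translation, were the other gains among the first 5. Scaled per kilobase of gene length, FTL stood first of all genes with the combination and second with vehicle, at 26845 ± 394 with the combination and 5938 ± 174 with vehicle per 1e6. Likewise per length, FTH1 stood second with the combination and in place 10 with vehicle.

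The genes that lost most CPM were TGM2, ACTB, PKM, CAV1 and KRT5. TGM2, a transglutaminase that crosslinks proteins, had 639, 636 and 643 CPM in the combination libraries, against 4844, 4771 and 4862 CPM in the vehicle libraries. ACTB, the cytoplasmic actin often used as a standard, had 3282, 3396 and 3317 CPM in the combination libraries, against 6997, 6537 and 6563 CPM in the vehicle libraries. Every combination library lay below every vehicle library for both. TGM2 fell by 2.92 ± 0.030, ACTB fell by 1.01 ± 0.027, PKM, the pyruvate kinase of late glycolysis, fell by 1.16 ± 0.025 and CAV1, the coat protein of caveolae, fell by 2.85 ± 0.030 log2. On the scale per length, ACTB was the first of all genes with vehicle and the seventh with the combination.

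Cholesterol synthesis rose along almost its whole length. Cells make cholesterol from acetyl-CoA through mevalonate, squalene and lanosterol, and SREBP2 is known to switch these enzymes on together when sterols in the ER run low. Of 20 enzymes of the pathway, 19 rose, 0 fell and 1 was not called, and 16 rose by at least 2-fold, with a median of 1.605 log2. HMGCS1, which makes the precursor of mevalonate, had 1366, 1369.7 and 1361 CPM in the combination libraries, against 345, 350.5 and 373 CPM in the vehicle libraries. MSMO1, a sterol demethylase, had 787, 771 and 789.9 CPM in the combination libraries, against 133, 136 and 141 CPM in the vehicle libraries. The groups lay far apart at both, and MSMO1 rose by 2.52 ± 0.037 log2. MVD, which makes isopentenyl diphosphate, rose by 2.38 ± 0.063, CYP51A1, the lanosterol demethylase, by 1.98 ± 0.033 and HMGCS1 by 1.94 ± 0.035 log2. PMVK, phosphomevalonate kinase, was the 1 not called, at 0.15 ± 0.14 log2. The sterol element TCACNCCAC was searched on both strands of RefSeq promoters (GRCh38.p14), from 250 bases before to 50 after the start. It was held by 0 of 15 promoters of the list and by 1.39% of the promoters of 27305 genes.

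**Figure D2:**
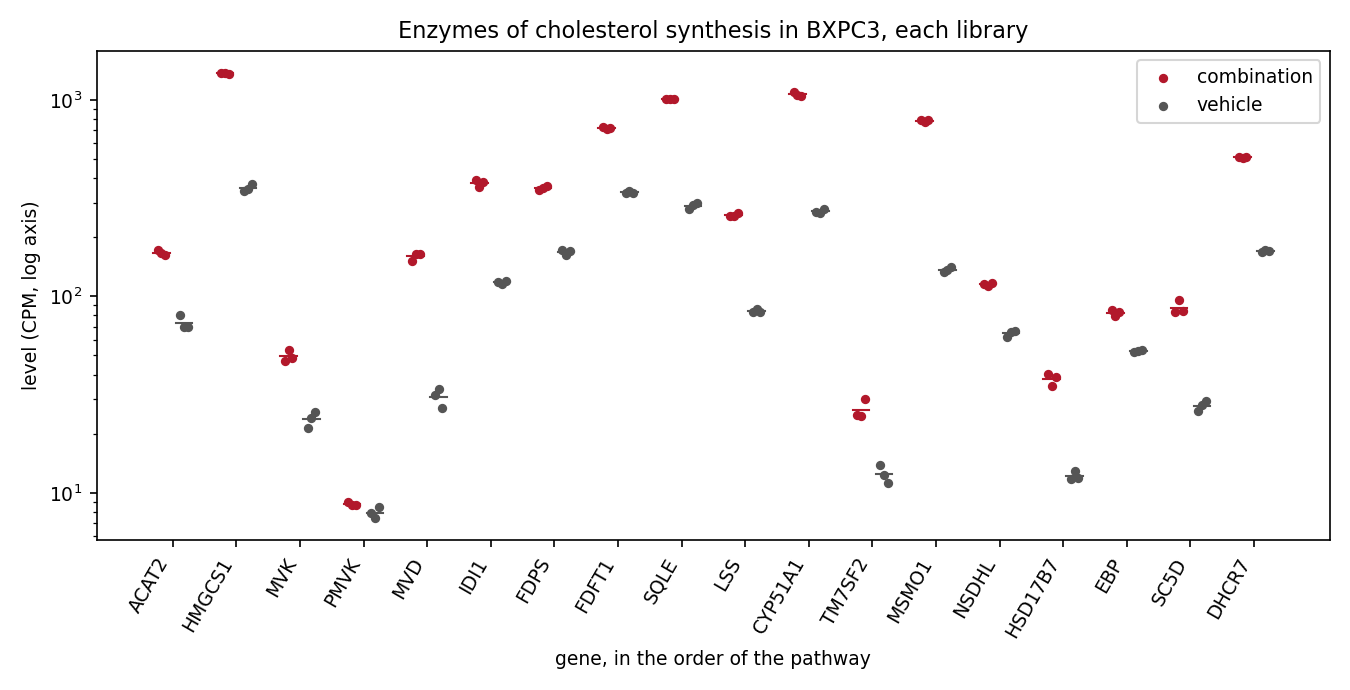
Level in CPM (y axis, log scale) of 18 of the 20 enzymes of cholesterol synthesis, in the order of the pathway from left to right, in each BXPC3 library. Points are libraries and short bars the mean of 3, red for the combination and grey for vehicle, and the 2 groups lie close together at PMVK and farther apart at the other genes.

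Genes that sense, take up and export sterols moved in both directions. INSIG1, an ER protein that holds SREBP back and is itself an SREBP target (chr7:155297776-155310235), had 1125, 1112 and 1127 CPM in the combination libraries, against 143, 147 and 147 CPM in the vehicle libraries. It rose by 2.94 ± 0.036 log2, adjusted p = 3.31e-29 (edgeR, quasi-likelihood, Benjamini-Hochberg). STARD4, a cytosolic sterol carrier, rose by 1.67 ± 0.059 and SREBF2, the gene of SREBP2, by 0.73 ± 0.035 log2. SREBF1, which encodes SREBP1, fell by 0.53 ± 0.053 log2. The 2 largest falls of the list were those of known LXR targets: ABCA1, which exports cholesterol, fell by 3.08 ± 0.18 and MYLIP, a ligase that degrades lipoprotein receptors, by 2.68 ± 0.16 log2. In all, 7 of 16 rose, 6 fell and 3 were not called, near the shares over all genes tested.

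Fatty acid synthesis rose as well, with 16 of 19 genes up, 2 down and a median of 1.08 log2. ACSS2, which makes acetyl-CoA from acetate, had 560.2, 542 and 554 CPM in the combination libraries, against 60.5, 58.4 and 56.01 CPM in the vehicle libraries. SCD, which puts the first double bond into stearate, had 4923, 4879 and 4858 CPM in the combination libraries, against 1632, 1559 and 1616 CPM in the vehicle libraries. Both stood higher in all 3 combination libraries, by 3.24 ± 0.041 and 1.61 ± 0.026 log2. LPIN1, a phosphatidate phosphatase, rose by 3.09 ± 0.071 and AGPAT2, an acyltransferase, by 1.53 ± 0.052 log2. ELOVL6, an elongase known as an SREBP1 target, fell by 1.86 ± 0.083 log2 and GPAM, which starts glycerolipid synthesis, by 0.39 ± 0.067. PLIN2, the coat protein of lipid droplets, had 123, 114 and 119 CPM in the combination libraries, against 13.5, 11.7 and 12.3 CPM in the vehicle libraries, a rise of 3.25 ± 0.068 log2. Among 20 genes of fatty acid oxidation and storage 6 rose and 10 fell, beside 39.7% up and 39.5% down over all genes tested. HADH, an enzyme of beta-oxidation, fell by 1.76 ± 0.071 log2.

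Transcripts of the iron storage genes FTH1 and FTL rose, while that of the iron importer fell slightly. HMOX1, heme oxygenase, which frees iron from heme, had 50.98, 53.6 and 54.9 CPM in the combination libraries, against 3.13, 2.703 and 3.28 CPM in the vehicle libraries. It rose by 4.12 ± 0.11 log2, FTH1 rose by 2.87 ± 0.031 and FTL rose by 2.204 ± 0.032. TFRC, the transferrin receptor, stood at 672 ± 5.26 CPM with the combination and 755 ± 21.5 CPM with vehicle and fell by 0.17 ± 0.032 log2. Among 17 genes of iron handling 7 rose, 3 fell and 7 were not called, the rises being near the share over all genes tested (39.7%). Copies of FTH1 and FTL are spread over the genome, and whether the counting kept their reads apart is not known.

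Metallothioneins, small proteins that bind zinc and copper and are switched on by the metal sensor MTF1, rose. Of 10 genes of this list and of zinc transport 8 rose, 1 fell and 1 was not called, with a median of 1.16 log2. MT1G had 26.9, 25.6 and 28.3 CPM in the combination libraries, against 2.61, 2.24 and 1.86 CPM in the vehicle libraries. MT1X had 73.1, 75.2 and 83.4 CPM in the combination libraries, against 27.5, 24.3 and 23.4 CPM in the vehicle libraries. The combination libraries were all above the vehicle libraries at both. MT1H rose by 3.87 ± 0.32, MT1G by 3.58 ± 0.15, MT1F by 2.29 ± 0.19 and MT1X by 1.62 ± 0.076 log2, and MT1H rests on 15 vehicle counts. SLC39A10, a zinc importer, fell by 3.03 ± 0.11 log2. Metallothionein genes are near copies of each other, so values of single members are uncertain. Their control sequence is the metal element, TGCACNC or TGCGCNC. In the same promoter window, 5 of the 6 listed genes with a promoter in the table held it on either strand (83.3%), against 33.4% of all promoters. Holders include SLC39A10, which fell, and MT2A, which changed by 0.83 log2. The stretches of the 3 that changed most among those with a match wholly upstream of the start are shown with the match in capitals.
MT1H: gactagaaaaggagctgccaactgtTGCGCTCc
MT1X: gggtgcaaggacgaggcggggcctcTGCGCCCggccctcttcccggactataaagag
SLC30A1: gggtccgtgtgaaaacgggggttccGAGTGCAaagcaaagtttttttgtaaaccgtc
They lie at chr16:56669781-56669813, plus strand, at chr16:56682392-56682448, plus strand and at chr1:211579179-211579235, minus strand. SLC30A1, a zinc exporter, rose by 1.06 ± 0.040 log2.

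NRF2 targets, which make glutathione and reduce quinones and thioredoxin, rose in 18 of 25 cases, fell in 6 and had a median of 1.08 log2. Beside HMOX1, GCLC, the catalytic subunit of glutathione synthesis, rose by 3.08 ± 0.050, SLC7A11, the cystine importer, by 3.05 ± 0.048 and OSGIN1, a growth inhibitor, by 2.66 ± 0.13 log2. AKR1B10, an aldo-keto reductase and known NRF2 target, fell by 2.77 ± 0.19 log2, to 2.602 CPM with the combination and 17.8 CPM with vehicle. SLC6A6, the taurine importer, fell by 0.98 ± 0.10 log2. The antioxidant element TGACNNNGC was held by 5 of 17 promoters of the list (29.4%) and by 16.1% of all promoters. Holders include EPHX1, which changed by -0.74 log2.

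Hypoxia targets rose in part. HIF is known to raise glucose uptake, glycolysis, vessel growth factors and its own inhibitors when oxygen or iron is short. NDRG1, at chr8:133237171-133302022, had 1801, 1826 and 1855 CPM in the combination libraries, against 64.1, 69.1 and 69.3 CPM in the vehicle libraries. SLC2A3 had 33.95, 33.8 and 34.2 CPM in the combination libraries, against 1.82, 1.86 and 1.15 CPM in the vehicle libraries. VEGFA, the vascular growth factor, had 845, 888 and 898 CPM in the combination libraries, against 160.1, 176 and 169 CPM in the vehicle libraries. In each case the lowest combination library exceeded the highest vehicle library several times over. Of 22 genes tested 17 rose, 4 fell and 1 was not called, with a median of 1.32 log2, and 12 rose by at least 2-fold. The 2 listed targets not tested were almost without counts. CA9 had 0 combination and 2 vehicle counts and BNIP3 had 1 combination and 0 vehicle counts. LOX, which crosslinks collagen, rose by 3.25 ± 0.084 and VEGFA by 2.38 ± 0.069 log2. SLC2A1, the gene of GLUT1 and a classical HIF target, was not called, at -0.04 ± 0.037 log2. CA12, a carbonic anhydrase, fell by 3.41 ± 0.24 log2 on 24 combination counts and LOXL2, a relative of LOX, by 1.83 ± 0.17. HIF1A itself fell by 0.68 ± 0.034 while EPAS1, which encodes HIF-2alpha, rose by 0.82 ± 0.035 log2. The core ACGTG or GCGTG was held by 17 of 19 promoters of the list (89.5%), and by 52.4% of all promoters. Holders include CA9 and BNIP3, which were not tested, and CA12, which fell.

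The integrated stress response was raised at its factors. This pathway slows translation through eIF2 kinases and raises ATF4, which then switches on CHOP, TRIB3 and genes for amino acid supply. ATF4 had 820.0, 792 and 840.4 CPM in the combination libraries, against 280.3, 271 and 263 CPM in the vehicle libraries. DDIT3 had 197, 202 and 193 CPM in the combination libraries, against 7.21, 8.02 and 11.01 CPM in the vehicle libraries. ATF3, a partner factor, had 65.04, 66.4 and 64.7 CPM in the combination libraries, against 3.82, 4.57 and 3.73 CPM in the vehicle libraries. None of the 3 showed any overlap between the groups. Of 17 factors 14 rose, 2 fell and 1 was not called, with a median of 2.11 log2. TRIB3 rose by 5.09 ± 0.051, DDIT3 by 4.496 ± 0.079, ATF3 by 4.02 ± 0.099, CHAC1, which breaks down glutathione, by 3.19 ± 0.11 and ATF4 by 1.59 ± 0.035 log2. ATF5, another ATF4-family factor, fell by 0.98 ± 0.046 and EIF2AK2, the interferon-induced kinase PKR, by 1.09 ± 0.053 log2. EIF2AK1, the heme-regulated kinase, was not called, at -0.003 ± 0.036 log2.

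Genes of amino acid supply went the same way. ASNS, asparagine synthetase, had 353, 353 and 368 CPM in the combination libraries, against 32.5, 35.7 and 32.7 CPM in the vehicle libraries. ALDH1L2 had 40.8, 45.8 and 40.98 CPM in the combination libraries, against 1.48, 1.49 and 1.24 CPM in the vehicle libraries. Both were at least several-fold higher in every combination library. Of 16 genes of amino acid synthesis 12 rose, 3 fell and 1 was not called. ASNS rose by 3.41 ± 0.049 and PSAT1, of serine synthesis, by 1.96 ± 0.037 log2, while GLUL, glutamine synthetase, fell by 1.47 ± 0.036 and ASS1, of arginine synthesis, by 0.296 ± 0.045. Another of the risers had 1 vehicle count and its size is not given. Among 13 amino acid transporters 10 rose and 2 fell, a count of 1 down without combination replicate 1 or 3 or vehicle replicate 3. SLC7A11 rose by 3.05 ± 0.048, SLC1A4, a serine and alanine transporter, by 2.32 ± 0.069, SLC6A9, the glycine importer, by 2.12 ± 0.076 and SLC43A1, a leucine transporter, by 1.65 ± 0.13 log2. Cytosolic tRNA synthetases rose in 14 of 20 cases and fell in 5. AARS, CARS, SARS and GARS, which charge the tRNAs of alanine, cysteine, serine and glycine, rose by 1.87, 1.49, 1.39 and 1.36 log2, while FARSB and HARS, for phenylalanine and histidine, fell by 1.06 and 0.77.

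The composite element TGATGCAA, bound by ATF4 with a C/EBP partner, was held by 5 of 26 promoters of the stress factors and amino acid genes (19.2%), against 1.08% of all promoters. They belong to CEBPG, CHAC1, PPP1R15B, MTHFD1L and GOT1. The 2 holders with the largest change among those with the element wholly upstream of the start are shown. The element is in capitals and is reversed in CHAC1.
CHAC1: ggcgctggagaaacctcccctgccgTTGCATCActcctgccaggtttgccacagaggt
CEBPG: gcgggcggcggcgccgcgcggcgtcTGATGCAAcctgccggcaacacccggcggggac
They lie at chr15:40953237-40953294, plus strand, and at chr19:33374046-33374103, plus strand. CHAC1 had 49.1, 52.4 and 56.8 CPM in the combination libraries, against 4.87, 6.71 and 5.77 CPM in the vehicle libraries. CEBPG, a C/EBP partner of ATF4, had 287, 286 and 280.2 CPM in the combination libraries, against 68.8, 71.5 and 73.9 CPM in the vehicle libraries. Both genes were higher in every combination library.

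Secreted stress signals followed, with 6 of 8 genes up and 2 down. GDF15, a hormone known to act on appetite through a brainstem receptor, had 185, 196 and 195 CPM in the combination libraries, against 17.9, 17.5 and 17.3 CPM in the vehicle libraries. It rose by 3.45 ± 0.065 log2 and ADM2 rose by 4.73 ± 0.11. INHBE, an activin subunit gene, rose by 4.44 ± 0.50 log2, with 77 counts over the 3 combination libraries and 4 over the 3 vehicle libraries, so its size is uncertain (5.63 log2 without vehicle replicate 1). FST, the activin antagonist, fell by 0.65 ± 0.029 and ADM, adrenomedullin, fell by 0.89 ± 0.098 log2.

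Genes of the ER stress response moved both ways, with more rises than falls. HERPUD1, of ER-associated degradation, had 288, 302 and 296 CPM in the combination libraries, against 37.9, 37.2 and 41.8 CPM in the vehicle libraries. ERN1, which encodes the sensor IRE1, had 214, 221 and 228 CPM in the combination libraries, against 25.2, 26.005 and 28.4 CPM in the vehicle libraries. The groups did not overlap at either gene. Of 22 genes 14 rose, 6 fell and 2 were not called, with a median of 0.503 log2. ERN1 rose by 3.06 ± 0.054, HERPUD1 by 2.92 ± 0.047, XBP1, the factor spliced by IRE1, by 1.82 ± 0.042 and DNAJB9, a co-chaperone, by 1.696 ± 0.057 log2. HSPA5, the main ER chaperone, rose by 1.11 ± 0.028 and HYOU1, another chaperone, by 0.89 ± 0.032 log2. CRELD2, a disulfide isomerase of the stressed ER, fell by 1.28 ± 0.12 and CALR, calreticulin, fell by 0.79 ± 0.028 log2. Heat shock genes, in a list that holds the mitochondrial HSPE1 and HSPD1 beside cytosolic members, fell in 15 of 18 cases, with 1 up (2 without combination replicate 3 or vehicle replicate 2). HSPB8 fell by 1.81 ± 0.13, HSPE1, the mitochondrial cochaperonin, by 1.23 ± 0.10 and HSPB1 by 1.14 ± 0.058, while HSF1, the heat shock factor, rose by 0.497 ± 0.047 log2. Proteasome subunits fell in 28 of 31 cases, with a median of -0.51 log2 and PSMA2 lowest, down by 1.45 ± 0.25.

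Over 29 genes of autophagy and lysosome 17 rose, 8 fell and 4 were not called, beside 39.7% up and 39.5% down over all genes tested. WIPI1, which binds the forming autophagosome, had 93.8, 95.7 and 96.4 CPM in the combination libraries, against 6.95, 8.296 and 7.01 CPM in the vehicle libraries. SQSTM1, the cargo receptor p62, had 2217, 2188 and 2238 CPM in the combination libraries, against 452, 456 and 422 CPM in the vehicle libraries. The combination libraries were above the vehicle libraries throughout. ULK1, the initiating kinase, rose by 2.81 ± 0.074, MAP1LC3B, the membrane mark LC3B, by 2.43 ± 0.039, WIPI1 by 3.68 ± 0.077 and SQSTM1 by 2.32 ± 0.031 log2. Of lysosomal enzymes, CTSB, cathepsin B, fell by 1.28 ± 0.035 and GLA, alpha-galactosidase, by 1.16 ± 0.065 log2.

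**Figure D3:**
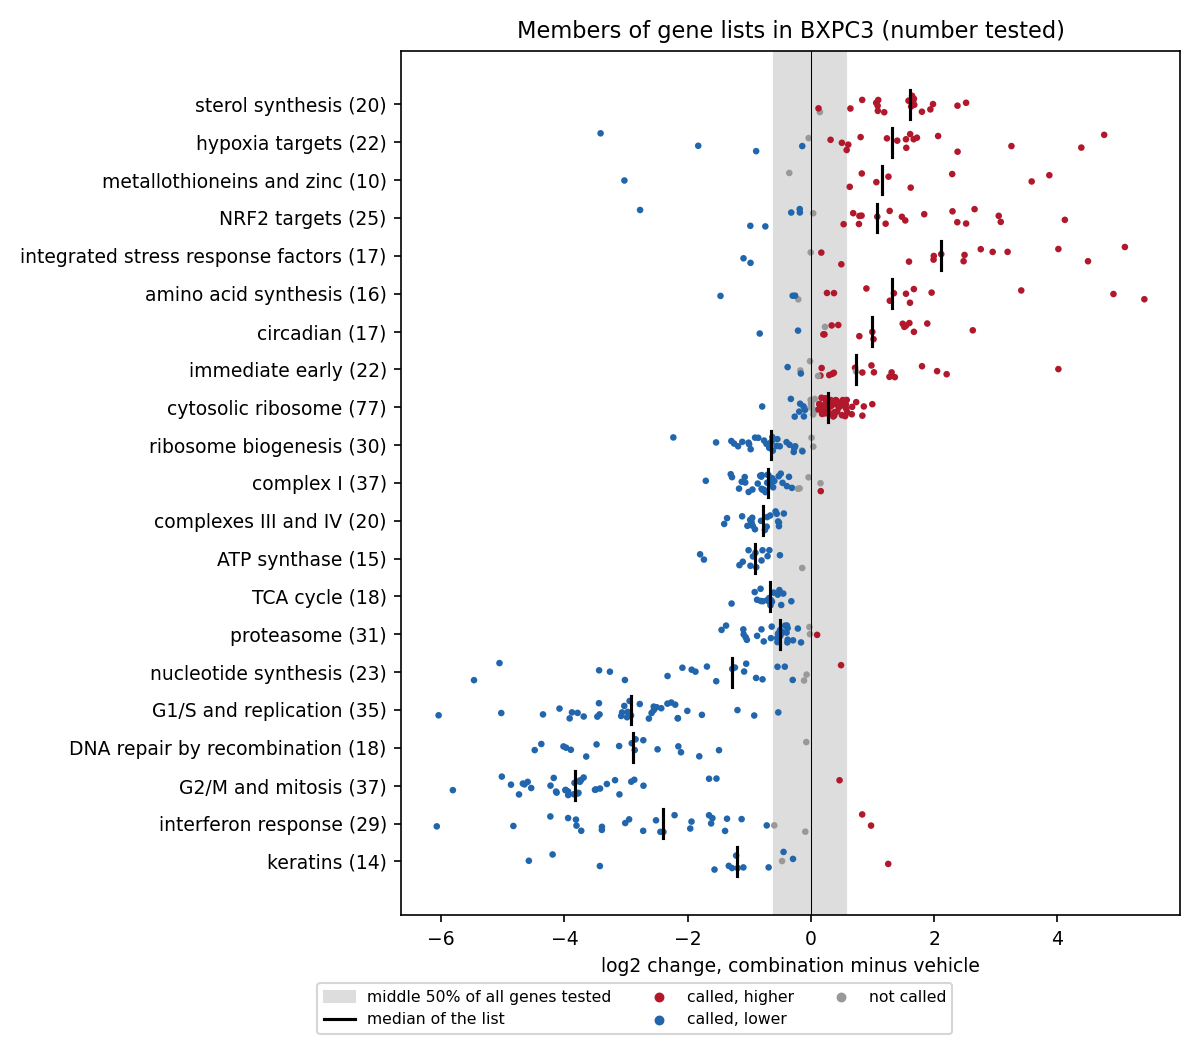
Log2 change (combination minus vehicle, x axis) of every tested member of 21 gene lists in BXPC3, with the number tested after each name. Points are genes, red if called higher, blue if called lower and grey if not called, black bars are list medians and the grey band spans the middle 50% of all genes tested, from -0.60 to 0.57.

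Most ribosomal proteins rose a little, 60 of 77, with 8 down, 9 not called and a median of 0.28 log2. RPS27 had 489, 472 and 464 CPM in the combination libraries, against 285, 154 and 274 CPM in the vehicle libraries, with vehicle replicate 2 far below the other vehicle libraries, and rose by 0.996 ± 0.11 log2. The 8 falls were 5 without combination replicate 1 or 2. EEF1A1 rose by 0.97 ± 0.021, EIF1, of start codon choice, by 1.55 ± 0.032 and EIF4EBP1, a brake on cap binding, by 1.29 ± 0.050 log2, in a list of 32 translation factors with 19 up and 13 down. TPT1 had 3877, 3705 and 3682 CPM in the combination libraries, against 1541, 1512 and 1526 CPM in the vehicle libraries. GAS5, whose introns carry small nucleolar RNAs, had 228, 223 and 233 CPM in the combination libraries, against 57.3, 56.8 and 54.5 CPM in the vehicle libraries. ZFAS1, another such host gene, had 304, 295 and 305 CPM in the combination libraries, against 80.6, 81.3 and 83.5 CPM in the vehicle libraries. All 3 were higher in every combination library. ZFAS1 overlaps ZNFX1 on the other strand, and whether the counting used strand is not stated. EEF1A1, TPT1, GAS5, ZFAS1 and ribosomal protein genes share a 5′ terminal oligopyrimidine tract, by which mTORC1 is known to control their translation and stability. Of 15 such host genes 11 rose, 1 fell and 3 were not called, with a median of 1.14 log2.

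Genes that build ribosomes fell. Of 30 nucleolar and RNA polymerase I genes 27 fell, 0 rose and 3 were not called, with a median of -0.64 log2. TCOF1, treacle, which supports ribosomal RNA transcription, had 42.1, 43.1 and 43.8 CPM in the combination libraries, against 206, 202 and 198 CPM in the vehicle libraries. It fell by 2.23 ± 0.049 log2, RRS1, of the large subunit, fell by 1.54 ± 0.080, BOP1 fell by 1.29 ± 0.057 and NOP16 fell by 1.25 ± 0.073. PES1, a partner of BOP1, was not called, at 0.04 ± 0.053 log2. Copies of ribosomal protein genes and of EEF1A1 are many, and whether the counting separated them is not known.

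Genes of mitochondrial energy production fell across complexes, mostly by less than 2-fold. Each of 18 tricarboxylic acid cycle genes fell (median -0.67 log2), as did 32 of 37 of complex I (median -0.703), all 20 of complexes III and IV (median -0.78) and 14 of 15 of ATP synthase (median -0.899). FH, fumarase, had 30.9, 29.7 and 31.2 CPM in the combination libraries, against 73.1, 74.3 and 76.8 CPM in the vehicle libraries. COX7B, of cytochrome oxidase, had 57.1, 51.4 and 52.9 CPM in the combination libraries, against 151, 141 and 136 CPM in the vehicle libraries. ATP5G1, which encodes the ring subunit of ATP synthase, had 12.4, 13.1 and 13.7 CPM in the combination libraries, against 49.2, 43.3 and 43.9 CPM in the vehicle libraries. Every combination library lay below every vehicle library at all 3. FH fell by 1.29 ± 0.063, COX7B fell by 1.41 ± 0.058 and ATP5G1 fell by 1.798 ± 0.086 log2. NDUFB6 led the falls in complex I, at 1.71 ± 0.12 log2, and the 1 complex I gene called up, NDUFV3 at 0.16 ± 0.067, was not called by DESeq2, without the filter on low counts, or without vehicle replicate 1 or 2 or combination replicate 2 or 3. The large mitochondrial ribosomal subunit fell in 38 of 46 cases, MRPL12 most, by 2.02 ± 0.22 log2. Median gene lengths were 2.19 kb in complex I, 1.98 kb in complexes III and IV and 3.23 kb in ATP synthase, against 4.86 kb over all genes tested, and the shortest 25% of all genes had a median change of -0.16 log2.

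Of 14 genes of mitochondrial biogenesis and uncoupling 10 fell, 2 rose and 2 were not called. TFAM, which packages and transcribes mitochondrial DNA, fell by 1.19 ± 0.054, UCP2, an uncoupling protein, fell by 1.67 ± 0.18 and PPARGC1B, a coactivator, fell by 1.45 ± 0.10 log2. MFN1, of mitochondrial fusion, rose by 0.37 ± 0.064 and POLG, the mitochondrial DNA polymerase, by 0.35 ± 0.056 log2. UCP2 had 3.296, 2.67 and 4.27 CPM in the combination libraries, against 11.99, 9.88 and 10.8 CPM in the vehicle libraries. LONP1, the matrix protease of the mitochondrial stress response, had 131, 131 and 128 CPM in the combination libraries, against 62.2, 63.01 and 63.6 CPM in the vehicle libraries. The 2 genes went opposite ways, and neither had groups that overlapped. TOMM40, the import pore, fell by 1.38 ± 0.046 log2, in a list of 20 stress and import genes with 4 up and 14 down.

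Glycolysis genes split, with 6 of 16 up and 10 down. The rises were near the share over all genes tested (39.7%) and the falls above it (39.5%). ENO2, the neuronal enolase, had 57.8, 52.8 and 61.7 CPM in the combination libraries, against 4.87, 6.71 and 4.88 CPM in the vehicle libraries. HK2, the hexokinase bound to mitochondria, had 163, 176 and 176 CPM in the combination libraries, against 90.7, 82.7 and 90.7 CPM in the vehicle libraries. LDHA, which makes lactate, had 535, 527 and 498 CPM in the combination libraries, against 968, 976 and 974 CPM in the vehicle libraries. ENO2 and HK2 were higher, and LDHA lower, in every combination library. ENO2 rose by 3.39 ± 0.11, HKDC1, a hexokinase-like enzyme, by 2.63 ± 0.10, ALDOC, the brain aldolase, by 2.16 ± 0.14 and HK2 by 0.96 ± 0.049 log2. PGAM1 fell by 1.52 ± 0.042, PKM by 1.16 ± 0.025, TPI1 by 0.98 ± 0.034 and GPI by 0.94 ± 0.037 log2.

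At the step that lonidamine is known to block, MPC1 of the mitochondrial pyruvate carrier had 18.3, 19.4 and 19.1 CPM in the combination libraries, against 6.69, 8.02 and 6.57 CPM in the vehicle libraries. It rose by 1.42 ± 0.13 log2. SLC16A3, the lactate exporter MCT4, rose by 0.64 ± 0.045, and PCK2, which feeds phosphoenolpyruvate from the mitochondrion, by 1.98 ± 0.058 log2. SLC16A7, a high-affinity monocarboxylate transporter, fell by 1.94 ± 0.12, LDHB fell by 1.29 ± 0.032 and LDHA fell by 0.903 ± 0.034 log2. Of 20 genes of pyruvate and lactate 7 rose and 13 fell, beside 39.7% up and 39.5% down over all genes tested. TXNIP and ARRDC4, glucose-sensing arrestins that restrain glucose uptake, rose by 1.79 ± 0.040 and 1.599 ± 0.10 log2, with TXNIP at 337, 349.6 and 343 CPM in the combination libraries, against 96.9, 104 and 96.6 CPM in the vehicle libraries. The 2 groups were apart at TXNIP.

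Among regulators of AMPK and mTORC1, 12 of 19 rose, 3 fell (5 with no filter on low counts) and 4 were not called. DDIT4, an mTORC1 inhibitor, and SESN2, a leucine sensor, rose by 2.49 ± 0.039 and 2.48 ± 0.070 log2, and PRKAB2, an AMPK subunit, by 1.71 ± 0.075. PRKAA2, the AMPK catalytic subunit alpha-2, rose by 1.41 ± 0.100 log2. SESN3, another sestrin, fell by 1.32 ± 0.100 and RPTOR, the raptor subunit of mTORC1, by 0.49 ± 0.069 log2.

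Division genes fell throughout. All 35 genes of G1/S and replication fell, with a median of -2.92 log2, and 36 of 37 genes of G2 and mitosis fell, with a median of -3.82. CDK1, the kinase that starts mitosis, had 5.16, 6.24 and 5.28 CPM in the combination libraries, against 139, 142 and 145 CPM in the vehicle libraries. TOP2A, the topoisomerase of chromosome separation, had 19.2, 20.4 and 18.3 CPM in the combination libraries, against 563, 549 and 578 CPM in the vehicle libraries. MCM10 had 1.21, 0.7799 and 1.46 CPM in the combination libraries, against 76.5, 75.2 and 77.6 CPM in the vehicle libraries. The combination libraries held a small fraction of the vehicle level of all 3. KIF20A, a mitotic kinesin, fell by 5.81 ± 0.11, ANLN, of the contractile ring, by 5.01 ± 0.060, TOP2A by 4.87 ± 0.058 and CDK1 by 4.67 ± 0.088 log2. E2F2, which drives S phase, fell by 5.02 ± 0.19 log2 on 21 combination counts, CCNE2, a G1/S cyclin, fell by 4.35 ± 0.17 and GINS1, of the replicative helicase, fell by 4.08 ± 0.091. CDC25B, a phosphatase that activates CDK1, was the exception and rose by 0.46 ± 0.035 log2.

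Promoters of these genes are known for 2 short elements. The E2F element, TTTGGCGC or TTTCCCGC, was held by 17 of 30 promoters of the G1/S list (56.7%), against 2.75% of all promoters. The cell cycle element TTTGAA, bound by the DREAM and MuvB complexes, was held by 21 of 31 promoters of the G2 and mitosis list (67.7%), against 18.2% of all promoters. For each, the 3 genes with the largest change among those with a match wholly upstream of the start are shown, those of the E2F element first, with the match on either strand in capitals.
E2F2: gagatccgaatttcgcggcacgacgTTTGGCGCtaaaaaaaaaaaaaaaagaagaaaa
CDC25A: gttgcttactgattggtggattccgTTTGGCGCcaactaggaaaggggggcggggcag
GINS2: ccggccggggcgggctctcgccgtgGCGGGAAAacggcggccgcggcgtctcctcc
ANLN: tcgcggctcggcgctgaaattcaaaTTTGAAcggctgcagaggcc
TOP2A: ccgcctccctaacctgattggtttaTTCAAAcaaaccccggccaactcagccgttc
CDK1: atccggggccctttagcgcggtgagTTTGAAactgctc
They lie at chr1:23531243-23531300, minus strand, at chr3:48188429-48188486, minus strand, at chr16:85688955-85689010, minus strand, at chr7:36389817-36389861, plus strand, at chr17:40418017-40418072, minus strand and at chr10:60778440-60778477, plus strand. CDC25A, the phosphatase of S phase entry, fell by 3.88 ± 0.099 log2 and GINS2 fell by 3.79 ± 0.20.

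DNA repair by recombination, which works on replicated DNA, fell in 17 of 18 cases with a median of -2.88 log2. EXO1, which resects breaks, fell by 4.48 ± 0.16, BRIP1, a helicase, by 4.37 ± 0.16, XRCC2 fell by 4.01 ± 0.19 and RAD51AP1 fell by 3.97 ± 0.13 log2. Nucleotide synthesis fell in 20 of 23 cases. RRM2, of ribonucleotide reductase, had 3.296, 3.79 and 2.58 CPM in the combination libraries, against 148, 140.3 and 141 CPM in the vehicle libraries. It fell by 5.47 ± 0.097, TYMS, thymidylate synthase, fell by 5.05 ± 0.098 and TK1, thymidine kinase, fell by 3.44 ± 0.100 log2. ADSS, of AMP synthesis, rose by 0.49 ± 0.046 log2.

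Inhibitors and D cyclins went both ways, with 8 of 20 up and 10 down, not far from the shares over all genes tested. CDKN1A, the inhibitor p21, had 879, 911 and 940.0 CPM in the combination libraries, against 169.5, 175 and 164 CPM in the vehicle libraries. CCND2, cyclin D2, had 0.879, 1.56 and 0.898 CPM in the combination libraries, against 28.7, 29.1 and 31.2 CPM in the vehicle libraries. The 2 genes moved in opposite directions with no overlap of groups. CDKN1A rose by 2.43 ± 0.037 and CCNG2, a cyclin known to slow division, by 1.75 ± 0.066 log2, while CCND2 fell by 4.72 ± 0.18, CDKN2C, the inhibitor p18, by 4.11 ± 0.25, and CCND1, cyclin D1, by 0.86 ± 0.035 log2. CCND2 rests on 30 and CDKN2C on 16 combination counts.

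Interferon response genes fell. Interferons act through STAT2 and IRF9 on genes that block viruses. CXCL10 had 1.099, 1.23 and 1.12 CPM in the combination libraries, against 84.1, 79.6 and 70.3 CPM in the vehicle libraries. IFIT1, which binds viral RNA caps, had 3.19, 5.01 and 2.58 CPM in the combination libraries, against 109, 108 and 90.4 CPM in the vehicle libraries. OAS1, which senses double-stranded RNA, had 5.27, 6.13 and 5.28 CPM in the combination libraries, against 87.4, 75.7 and 71.5 CPM in the vehicle libraries. All 3 were low in every combination library. Of 29 genes 25 fell, 2 rose and 2 were not called, with a median of -2.39 log2. IFIT1 fell by 4.83 ± 0.15, USP18, which damps the receptor, by 4.23 ± 0.29 on 17 combination counts and OAS2 by 3.94 ± 0.12 log2. ISG20, an exonuclease, rose by 0.98 ± 0.17 and STAT2 by 0.83 ± 0.044 log2. IRF1, the factor at the head of the interferon-gamma branch, was not called, at -0.09 ± 0.054 log2. The core of the interferon element, TTTCNNTTT, was held by 17 of 21 promoters of the list (81%), against 12.6% of all promoters. Holders include ISG20, which rose. The 3 that fell most among those with a match wholly upstream of the start are shown, with the match on either strand in capitals.
CXCL10: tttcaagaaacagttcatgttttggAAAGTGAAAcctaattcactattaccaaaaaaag
IFIT1: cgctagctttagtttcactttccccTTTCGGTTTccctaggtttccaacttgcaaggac
OAS1: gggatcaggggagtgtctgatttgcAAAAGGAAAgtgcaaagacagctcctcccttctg
They lie at chr4:76023684-76023742, minus strand, at chr10:89392495-89392553, plus strand and at chr12:112906884-112906942, plus strand.

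Presentation by HLA class I fell less. Of 15 genes 11 fell and 3 rose, with a median of -0.54 log2. ERAP2, a peptide trimmer, fell by 1.76 ± 0.051, PSMB9 and PSMB8 of the immunoproteasome by 1.17 ± 0.17 and 1.06 ± 0.082, and ERAP1 by 1.05 ± 0.053 log2. HLA-E, a ligand of natural killer cell receptors, rose by 0.86 ± 0.043 and NLRC5, the activator of class I genes, by 0.81 ± 0.11 log2. Chemokines and cytokines under NF-kB fell in 15 of 23 cases. CXCL8, which draws neutrophils, had 65.4, 59.7 and 54.9 CPM in the combination libraries, against 218, 229.6 and 224 CPM in the vehicle libraries. CXCL1 had 38.1, 36.9 and 34.9 CPM in the combination libraries, against 168, 161 and 168 CPM in the vehicle libraries. Both were lower in all 3 combination libraries. CCL2, which draws monocytes, fell by 5.93 ± 0.22 log2 and TNF by 3.19 ± 0.36, each on 9 combination counts. CXCL2, close to CXCL1, rose by 0.72 ± 0.084 and CSF2, GM-CSF, by 0.57 ± 0.20 log2, the libraries of CSF2 overlapping. CSF2 was not called without combination replicate 3 (0.35 log2) or vehicle replicate 1 (0.48 log2). IL6 was not called, at 0.08 ± 0.14 log2.

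Immediate early genes rose in 16 of 22 cases and fell in 2 (1 without combination replicate 3 or vehicle replicate 2), with a median of 0.72 log2. NR4A1, an orphan receptor, rose by 2.203 ± 0.17, KLF2 by 2.05 ± 0.29 and KLF4 by 1.803 ± 0.053 log2, while JUN fell by 0.38 ± 0.056. Genes known as feedback targets of ERK rose in 13 of 16 cases, DUSP5, an ERK phosphatase, by 2.21 ± 0.040 and SPRY4 by 2.196 ± 0.062, while SPRY1 fell by 2.22 ± 0.17 log2. Of 12 EGF receptors, ligands and regulators 7 rose and 5 fell, shares not far from those over all genes tested. HBEGF and AREG, ligands of the EGF receptor, rose by 1.83 ± 0.037 and 1.78 ± 0.040 log2. AREG had 254, 252 and 255 CPM in the combination libraries, against 71.8, 72.8 and 76.4 CPM in the vehicle libraries. NRG1, a ligand of ERBB3, fell by 2.16 ± 0.064 log2.

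Of 12 tested genes of the insulin-like growth factor axis 3 rose, 6 fell and 3 were not called, and 4 more were not tested. The 4 tested carriers of these factors fell. IGFBP2 had 7.801, 8.69 and 10.2 CPM in the combination libraries, against 74.04, 72.2 and 59.1 CPM in the vehicle libraries. IGFBP6 had 35.8, 33.3 and 34.7 CPM in the combination libraries, against 155, 133 and 137 CPM in the vehicle libraries. With IGFBP5, all 3 carriers were lower in every combination library. IGFBP2 fell by 2.94 ± 0.12, IGFBP6 by 2.03 ± 0.061 and IGFBP4 by 1.703 ± 0.050 log2, while IRS2, the insulin receptor substrate, rose by 2.02 ± 0.063 and IGF2R, which clears IGF2, by 1.76 ± 0.086. Of the carriers not tested, IGFBP1 had 20 combination and 0 vehicle counts, IGFBP3 had 0 combination and 1 vehicle counts and IGFBP7 had 0 combination and 3 vehicle counts.

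YAP targets and TGF-beta responsive genes mostly fell, 12 of 19 and 10 of 16. TGFB2, a ligand counted in both lists, fell by 3.31 ± 0.088, ANKRD1 by 3.02 ± 0.066, CTGF by 2.75 ± 0.21, CYR61 by 2.25 ± 0.043 and THBS1, thrombospondin, by 2.71 ± 0.046 log2. CYR61 had 48.7, 50.9 and 48.6 CPM in the combination libraries, against 234, 232 and 238 CPM in the vehicle libraries. PTPN14, an inhibitor of YAP, rose by 0.39 ± 0.075 and TGFBR1 by 0.81 ± 0.068 log2.

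The epithelial make-up of the line changed in parts. Keratins fell in 12 of 14 cases. KRT5, a keratin of basal cells, had 89.5, 101 and 100.1 CPM in the combination libraries, against 1798, 1799 and 1705 CPM in the vehicle libraries. KRT19, the duct keratin, had 482, 490.3 and 530.2 CPM in the combination libraries, against 1335, 1244 and 1204 CPM in the vehicle libraries. KRT16, a keratin of wounded epithelium, was the 1 riser, at 6.26, 7.13 and 7.18 CPM in the combination libraries, against 2.52, 3.17 and 2.93 CPM in the vehicle libraries. The groups were apart at all 3. KRT13 fell by 4.58 ± 0.094, KRT5 fell by 4.19 ± 0.059 and KRT19 fell by 1.33 ± 0.040, while KRT16 rose by 1.25 ± 0.18 log2. KRT14 and KRT16 are close in sequence, so reads may be split between them. KRT14 had 3 combination and 44 vehicle counts, a ratio of 0.0847 (95% counting interval 0.0168 to 0.264). Junction genes rose in 11 of 20 cases and fell in 5. OCLN, occludin, rose by 1.54 ± 0.072 and DSC2, desmocollin-2, by 1.43 ± 0.086, CLDN1, claudin-1, fell by 1.45 ± 0.036, and CDH1, E-cadherin, fell by 0.23 ± 0.039 log2. LAMB3 and LAMA3, chains of laminin-332, rose by 2.31 ± 0.038 and 1.37 ± 0.039 log2. COL4A1, of type IV collagen, fell by 3.39 ± 0.20 and ITGB6, the epithelial integrin beta-6, by 3.32 ± 0.090 log2. Of 19 basement membrane and integrin genes 13 rose and 6 fell.

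Markers of other cells moved in this line as well. CDH5, an endothelial cadherin, had 1 combination and 264 vehicle counts, a ratio of 0.00470 (95% counting interval 0.000119 to 0.0264), and PECAM1 had 0 and 42 counts, at least 11.3-fold lower at a floor of 3 counts over the group. The endothelial sum was 0.112 to 0.891 CPM with the combination and 9.59 to 11.5 CPM with vehicle, KDR and CLDN5 being at 0 in all 6 libraries. Immune markers summed to 37.0 to 41.1 CPM with the combination and 22.3 to 24.3 CPM with vehicle, while MS4A1, NKG7 and FCGR3A were at 0. CD68, a lysosomal protein, made up 1029 of the 1068 combination counts and 610 of the 792 vehicle counts. The higher sum is thus that of CD68, and of the 2 immune markers tested 1 rose and 1 fell. Fibroblast markers summed to 24.6 to 31.4 CPM with the combination and 35.3 to 35.6 CPM with vehicle. Of the 5 tested 1 rose and 4 fell, and COL1A1 made up 612 of 778 combination counts and 400 of 1190 vehicle counts. The part of these markers in the results was not tested.

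Genes of cell death moved both ways, 12 of 26 up and 11 down, shares near those over all genes tested. BMF, a BH3-only protein that responds to loss of attachment, had 47.5, 47.1 and 47.1 CPM in the combination libraries, against 5.13, 3.82 and 3.91 CPM in the vehicle libraries. BBC3, which encodes PUMA, had 43.1, 49.5 and 52.8 CPM in the combination libraries, against 4.78, 5.31 and 4.79 CPM in the vehicle libraries. Both BH3-only genes were higher in every combination library, BMF by 3.46 ± 0.11, BBC3 by 3.29 ± 0.12 and HRK, of the same class, by 1.48 ± 0.20 log2. FAS, the death receptor, fell by 1.48 ± 0.095 and BID, which links death receptors to mitochondria, by 1.22 ± 0.064 log2. BAX, an effector, was not called, at -0.08 ± 0.056 log2.

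Circadian genes rose in 14 of 17 cases, with a median of 0.997 log2. NR1D1, the clock repressor REV-ERBalpha, had 103, 102 and 101 CPM in the combination libraries, against 19.3, 14.8 and 15.3 CPM in the vehicle libraries. It rose by 2.63 ± 0.083 log2, NPAS2 rose by 1.89 ± 0.070, NFIL3 rose by 1.67 ± 0.087 and DBP rose by 1.598 ± 0.092, while PER2 fell by 0.83 ± 0.075. The time of day of harvest is not given in the sources.

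The same libraries were set against each compound alone. Among 12920 genes, 3919 were higher and 3937 lower with the combination than with SR4 (60.8% either way), and 3893 were higher and 3967 lower than with lonidamine (60.8% either way). These comparisons take the doses to be the same and share the combination libraries with each other. INSIG1 stood at 1121 ± 8.24 CPM with the combination, 254 ± 5.896 CPM with SR4, 182 ± 6.08 CPM with lonidamine and 146 ± 2.32 CPM with vehicle. HMGCS1 stood at 1365 ± 4.45 CPM with the combination, 427 ± 4.06 CPM with SR4, 232 ± 10.3 CPM with lonidamine and 356 ± 14.8 CPM with vehicle. SLC2A3 stood at 33.98 ± 0.242 CPM with the combination, 3.06 ± 0.0694 CPM with SR4, 3.93 ± 0.4003 CPM with lonidamine and 1.61 ± 0.399 CPM with vehicle. At INSIG1 the combination differed from SR4 by 2.14 ± 0.034 and from lonidamine by 2.62 ± 0.035 log2, and neither compound alone came near its level. With lonidamine alone HMGCS1 was below vehicle on these means, while the combination was 2.56 ± 0.037 log2 above lonidamine. All 19 called sterol enzymes were higher with the combination than with SR4 alone, and 19 were higher than with lonidamine alone.

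Other genes did not follow that order. ASNS stood at 358 ± 8.603 CPM with the combination, 343 ± 7.05 CPM with SR4, 471 ± 22.6 CPM with lonidamine and 33.6 ± 1.802 CPM with vehicle. Its difference from SR4 was 0.06 ± 0.039 log2 (adjusted p = 0.187 in edgeR, quasi-likelihood, Benjamini-Hochberg), and from lonidamine it was -0.397 ± 0.039. TXNIP was highest with lonidamine alone, at 343 ± 6.27 CPM with the combination, 250.4 ± 3.18 CPM with SR4, 521 ± 15.03 CPM with lonidamine and 99.04 ± 3.997 CPM with vehicle. HK2 too was higher with lonidamine alone, the combination differing from it by -0.16 ± 0.046 and from SR4 by 0.45 ± 0.047 log2. LDHA, low in all 3 treatments, was 0.62 ± 0.035 log2 above SR4 and 0.17 ± 0.034 above lonidamine. Of the amino acid synthesis genes, 5 were higher and 7 lower with the combination than with SR4, and 2 were higher and 10 lower than with lonidamine. MCM7, of the replicative helicase, was -0.36 ± 0.049 log2 against SR4 and 0.61 ± 0.053 against lonidamine, whereas CDK1 was lower than with either, at -2.42 ± 0.11 and -1.19 ± 0.13. CYR61 stood at 49.4 ± 1.31 CPM with the combination, 138 ± 0.447 CPM with SR4, 419 ± 10.9 CPM with lonidamine and 235 ± 2.91 CPM with vehicle, and 0 of 19 YAP targets were higher with the combination than with lonidamine, 19 being lower.

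**Figure D4:**
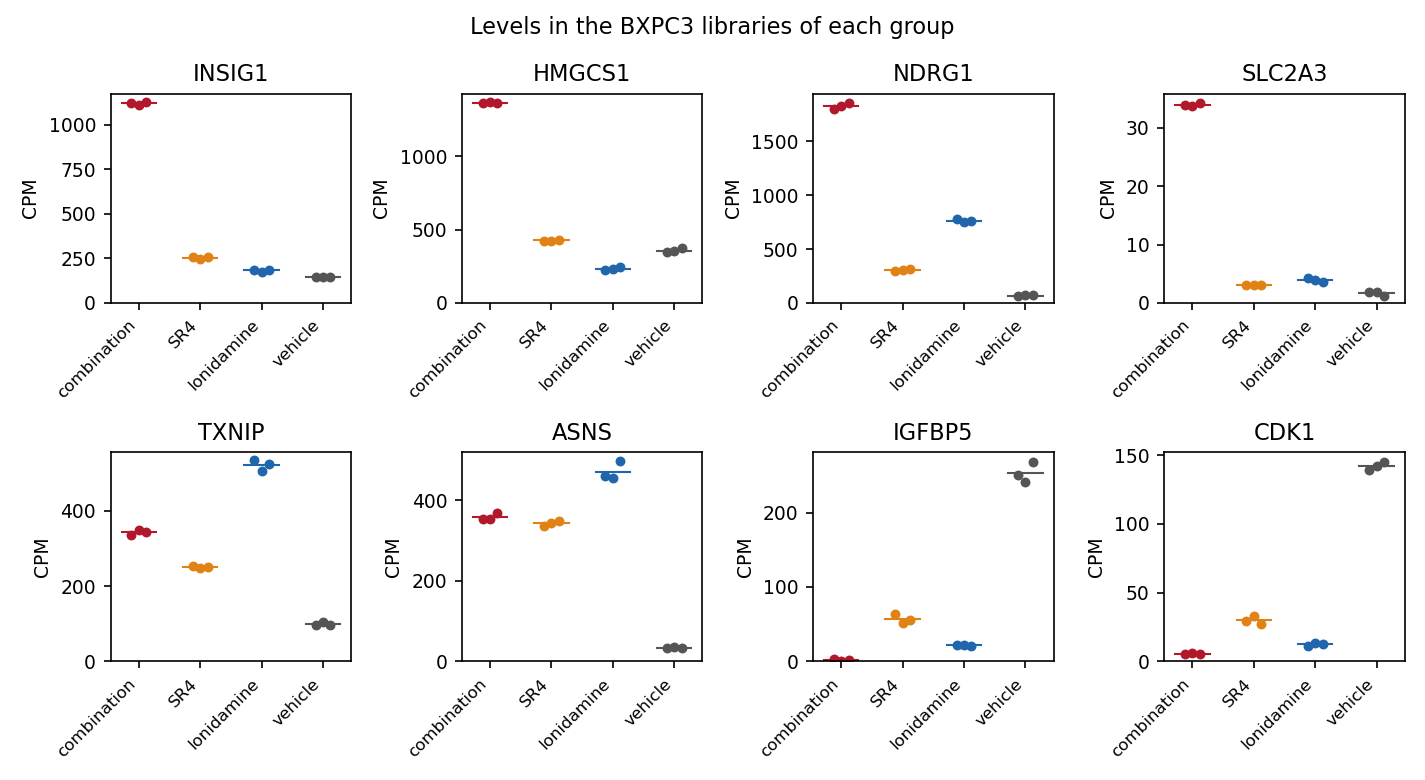
Level in CPM (y axes, from 0) of 8 genes in the 12 BXPC3 libraries, with the combination at the left, then SR4, lonidamine and vehicle. Points are libraries and short bars means of 3, and INSIG1, HMGCS1, NDRG1 and SLC2A3 are highest with the combination, TXNIP and ASNS with lonidamine, and IGFBP5 and CDK1 with vehicle.

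The response to the combination was also compared with that of PANC1, in a model of all 24 libraries. The change differed between the lines for 8617 of 13930 genes (61.9%), 4207 more positive and 4410 more negative in BXPC3, and 1971 were called in opposite directions in the 2 lines. Sterol synthesis was among the lists that parted. In BXPC3 19 of its 20 genes rose, with a median of 1.597 log2, and in PANC1 8 rose and 12 fell, with a median of -0.22. The difference was called for 18 of the 20, all more positive in BXPC3. INSIG1 changed by 2.93 ± 0.042 log2 in BXPC3 and -0.59 ± 0.047 in PANC1, a difference of 3.52 ± 0.062, adjusted p = 3.28e-34 (edgeR, quasi-likelihood, Benjamini-Hochberg). NDRG1 changed by 4.75 ± 0.060 in BXPC3 and -0.34 ± 0.093 in PANC1.

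Ribosome genes parted as well. Of 77 cytosolic ribosomal proteins, 59 rose and 8 fell in BXPC3, and 11 rose and 46 fell in PANC1, and 71 differed, all more positive in BXPC3. Of 30 ribosome biogenesis genes, 27 fell and 0 rose in BXPC3, and 7 fell and 19 rose in PANC1, and 26 differed, all more negative in BXPC3. Basement membrane and integrin genes rose in 13 of 19 cases in BXPC3, and fell in 16 with 0 rising in PANC1. CYR61 changed by -2.26 ± 0.047 log2 in BXPC3 and 1.22 ± 0.037 in PANC1, and CDKN1A by 2.42 ± 0.038 and -0.16 ± 0.054 in the same lines. Of 17 integrated stress factors 14 rose and 2 fell in BXPC3, and 15 rose and 2 fell in PANC1. The change differed for all 17, 7 more positive and 10 more negative in BXPC3. The difference at ASNS was not called, at 0.06 ± 0.074 log2. Division genes fell in both, G2 and mitosis genes with a median of -3.83 log2 in BXPC3 and -1.14 in PANC1, and 36 of 37 differed by being more negative in BXPC3.

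Genes with the largest differences between the lines included some called in opposite directions. BMF changed by 3.45 ± 0.12 log2 in BXPC3 and -3.93 ± 0.18 in PANC1, where it stood at 1.202 ± 0.466 CPM with the combination and 18.3 ± 0.9102 CPM with vehicle. CCND2 changed by -4.73 ± 0.18 in BXPC3 and 6.798 ± 0.29 in PANC1, where it stood at 17.1 ± 0.866 CPM with the combination and 0.141 ± 0.0562 CPM with vehicle, the vehicle value resting on 4 counts. NGFR, a neurotrophin receptor, changed by -1.08 ± 0.11 and 6.49 ± 0.21 in the same lines. In PANC1 it stood at 67.9 ± 1.66 CPM with the combination and 0.744 ± 0.0221 CPM with vehicle. PRDM16, a chromatin regulator, and CAPN12, a calpain, changed by 5.98 ± 0.51 and 4.97 ± 0.41 log2 in BXPC3 on 2 and 4 vehicle counts, and PRDM16 by 8.51 without vehicle replicate 1.

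**Figure D5:**
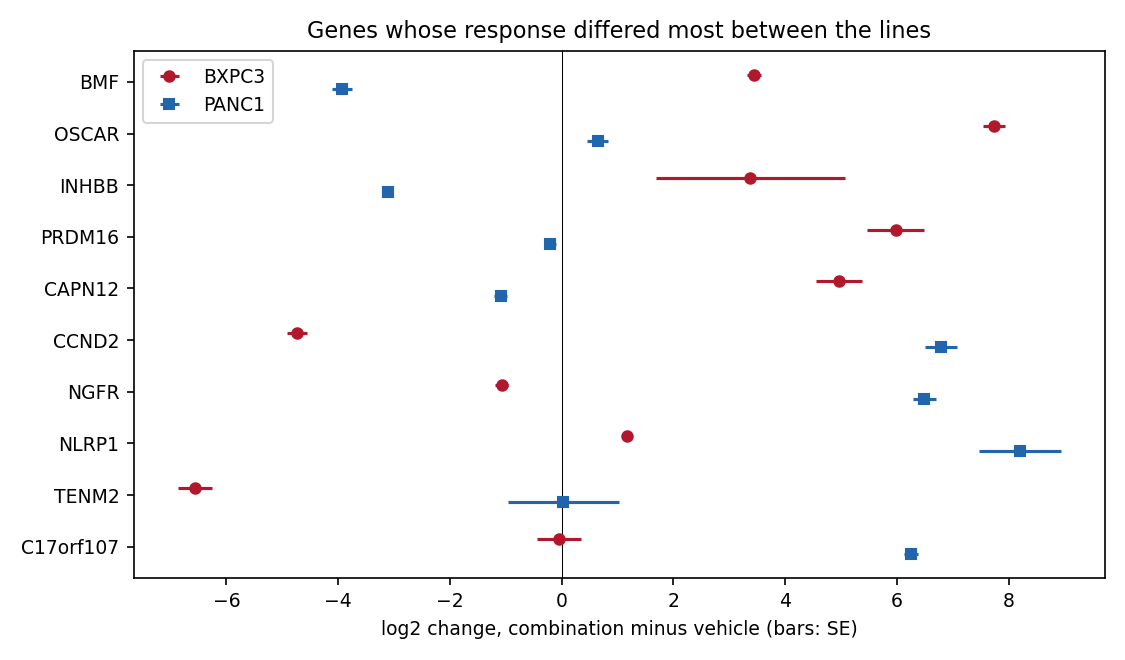
Log2 change with the combination against vehicle (x axis, bars are SE) in BXPC3 (red circles) and PANC1 (blue squares) for the 5 genes with the most positive and the 5 with the most negative difference between the lines. BMF is up in BXPC3 and down in PANC1, CCND2 the reverse, and INHBB in BXPC3 and TENM2 in PANC1 rest on few counts.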

How the data were processed

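Messenger RNA was read from BXPC3 cells treated for 24 h. RNeasy extraction and the KAPA mRNA Hyper Prep kit were used, per the labels' protocols. The authors deposited raw counts per gene with gene lengths, 1 table a line. STAR 2.7.8a, Partek and DESeq2 and the builds GRCh38 and hg38 are named, without a role, in the submitters' processing notes; no source used here states the counter, annotation or strand setting. Positions are as in the deposited table.

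Counts were scaled by TMM and tested with edgeR 4.0.16 (R 4.3.3, quasi-likelihood) on the 12 BXPC3 libraries in 4 groups with 8 residual degrees of freedom, after filterByExpr with a minimum count of 10. A gene was called at an adjusted p under 0.05 (Benjamini-Hochberg). The SE of a log2 change is the change over the square root of F. The 24-library fit kept 13930 genes. Replicates differed by more than sampling noise (chi-square over its degrees of freedom 1.46 to 2.63), so each counted once. Totals ran from 9142433 to 11470973 counts over the 6 libraries, and the biological coefficient of variation was 3.95%. One SR4 column was placed by its group alone.

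Members and the 63 gene lists (1255 entries, 17 matched by an older symbol) were chosen with earlier results of these data known. Named genes were the 10 largest rises and falls with at least 20 CPM and no overlap, the 5 largest gains and losses in CPM, the 5 most positive and 5 most negative differences between the lines, a panel, and in each list up to 4 members in the main direction, 2 in the other and 2 not called. A further 20, such as CDK1, HSPA5, ALDOC and the motif holders, were chosen after their values were seen, and some genes that met the rules are not reported here. Motifs were searched in RefSeq promoters. Alternatives were DESeq2 1.42.0 (test or size factors), no filter, the replicate number as a block, fewer libraries, glmTreat and leaving out each library. The pipeline was tested on simulated data with changes planted in a small part of the genes. Most genes were called in the real data, so that test does not speak for so broad a shift.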

Additional observations from a re-analysis of the deposited data

Results flagged for a closer look

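Each of these 10 genes changed differently with the combination in BXPC3 and PANC1, by the test of that difference over 24 libraries (edgeR, quasi-likelihood, Benjamini-Hochberg over 13930 genes). They are the 5 most positive and the 5 most negative differences among genes with at least 20 CPM in the highest group. Each is the log2 change in BXPC3 minus that in PANC1.

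More positive in BXPC3 were BMF (7.38, adjusted p = 3.06e-27), OSCAR (7.09, adjusted p = 1.78e-19) and INHBB, an activin subunit gene (6.49, adjusted p = 0.00282). INHBB had 3 combination and 0 vehicle counts in BXPC3, where it was not called (adjusted p = 0.0703), and 406 combination and 2867 vehicle counts in PANC1. PRDM16 differed by 6.18 (adjusted p = 3.05e-13) and CAPN12 by 6.06 (adjusted p = 4.11e-16).

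More negative in BXPC3 were CCND2 (-11.53, adjusted p = 9.07e-28) and NGFR (-7.56, adjusted p = 6.33e-26). NLRP1, an inflammasome sensor, differed by -7.03 (adjusted p = 1.09e-08), with 124 combination and 0 vehicle counts in PANC1, so its size is not a measured fold. TENM2 differed by -6.59 (adjusted p = 6.67e-05), with 5 combination and 4 vehicle counts in PANC1. C17orf107 differed by -6.304 (adjusted p = 5.30e-14), with 22 combination and 28 vehicle counts in BXPC3 and 3784 combination and 40 vehicle counts in PANC1.

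Without vehicle replicate 1 of BXPC3 the difference at PRDM16 was 8.697, and without combination replicate 1 of BXPC3 that at TENM2 was -8.45. That at INHBB was 5.54 and was not called without combination replicate 3 of BXPC3. The DESeq2 test gave 5.87 for INHBB and -6.33 for NLRP1.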

How the results depend on the processing

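All counts of genes called in the 4 comparisons stayed within 1.5 times under every alternative run. With the stricter sterol letters TCACCCCAC 0 of 15 promoters held the element, as with the first letters, so this says nothing on stability. For the combination against vehicle in BXPC3, 10229 genes were called. DESeq2 called 9721, of which 9721 were among them in the same direction, and its size factors gave 10234 (10187 shared). With no filter on low counts 10710 of 18600 were called, with the 6 libraries alone 10113 and without 1 library 9916 to 9997. The test of glmTreat against 2-fold called 1153 up and 1465 down, against 1645 and 1948 by the fold of the estimate.

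Replicate numbers were shared between groups without a stated meaning. Deviations of same-numbered combination and vehicle libraries correlated at 0.0015, -0.0031 and -0.070, and those of differently numbered ones at -0.041 to 0.044. Whether same-numbered libraries shared a culture or batch cannot be told from these values. With the number as a replicate block 10148 genes were called, 10124 of them as before. Against SR4 the block gave 7045 and against lonidamine 7696, in place of 7856 and 7860. The SR4 library placed by its group alone formed a block of its own, so it added nothing to the blocked comparison with SR4. Leaving that library out, with no block, gave 7351.

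Of 3139 gene values under alternatives 3126 kept direction and call. Many of these genes were named for their change in the same libraries, so this share does not speak for other genes. The exceptions were in 6 genes: SLC2A1 (leave-one-out -0.075 to 0.0021 log2), EIF2AK1 (-0.011 to 0.0095) and PES1 (-0.014 to 0.075), which were not called, and NDUFV3, CSF2 and, between the lines, INHBB. Of 1254 counts in lists 36 moved by over 1.5 times, all in counts of 8 or fewer. Depth limits genes at a few counts, whose folds are uncertain in size. The cause of these shifts was not tested.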

Other observations

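Other gene groups moved as well. Among 8 targets of the aryl hydrocarbon receptor and of vitamin D 6 rose and 1 fell. CYP1A1, a monooxygenase of xenobiotic breakdown, had 14.5, 18.05 and 18.97 CPM in the combination libraries, against 1.82, 1.86 and 1.69 CPM in the vehicle libraries, and it rose by 3.25 ± 0.17 log2. AHRR, the repressor of that receptor, rose by 1.29 ± 0.088 and TIPARP by 0.37 ± 0.052 log2. CYP24A1, which breaks down vitamin D, had 2 combination and 520 vehicle counts, a ratio of 0.00478 (95% counting interval 0.000577 to 0.0173).

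Mucins and secreted ductal proteins split, with 4 of 14 up and 8 down. S100P, a calcium-binding protein known from pancreatic cancer, had 256, 261 and 273 CPM in the combination libraries, against 31.5, 33.1 and 28.5 CPM in the vehicle libraries. CEACAM6, an adhesion protein, had 29.6, 27.1 and 29.7 CPM in the combination libraries, against 215, 216 and 212 CPM in the vehicle libraries. The groups were apart at both, in opposite directions, with S100P up by 3.08 ± 0.055 log2, while CEACAM6 fell by 2.89 ± 0.064 and CEACAM5 fell by 1.32 ± 0.059. Without vehicle replicate 2, or by DESeq2, 2 members rose in place of 4.

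Of 15 genes of the MAX network and of polyamines 8 rose and 4 fell. SMOX, spermine oxidase, rose by 2.38 ± 0.057, MXD1, a MAX partner, by 2.04 ± 0.047 and ODC1, ornithine decarboxylase, by 1.32 ± 0.050 log2, while SRM, spermidine synthase, fell by 1.27 ± 0.059. Among 9 tested mesenchymal genes VIM, vimentin, rose by 1.04 ± 0.051 log2, while CDH2, N-cadherin, fell by 2.47 ± 0.17 and TGFBI fell by 1.48 ± 0.036.

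Some genes that every cell uses had few counts in the table, and the cause was not tested. EIF4A1, a translation helicase, had 17 combination and 14 vehicle counts, RPS10 had 25 combination and 54 vehicle counts and PSMA6, of the proteasome, had 15 combination and 49 vehicle counts.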
